A study of Mus musculus with 6 samples.

Results

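Hepatokines are proteins that the liver secretes into blood and that act on other tissues, and the insulin-like growth factor (IGF) system is a classical example of such endocrine output. The group described here holds 10 genes: Igf1 and the IGF binding protein genes Igfbp1, Igfbp2 and Igfbp3, and the secreted regulators Fgf21, Angptl4, Inhbe, Fst, Gdf15 and Lect2. Each gene was read from the probe set that carries its symbol alone, the brightest one if there were several. This matched 9 of the 10 genes, each with a single probe set, among 19938 genes tested. Gdf15 had no probe set under its symbol in the annotation used and was not analysed here. The livers came from C57BL/6 mice, an inbred laboratory strain, fed ad libitum for 2 days on a high fat diet (HFD) or for 2 days on a regular diet (RD), with 3 biological replicates and 3 arrays per diet. The titles of all samples contain NI, an abbreviation left unexplained, and what it says of the mice is unknown here. Sex, age, feeding state at harvest and diet composition were not used here. Whether each replicate is 1 mouse is not stated, and p-values measure the spread between these samples. Where values are given per liver below, a liver stands for the sample on 1 array.

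Growth hormone acts on the liver through its receptor and the transcription factor STAT5 to drive Igf1, and most circulating IGF-1 travels bound to IGF binding proteins, which set how much of it reaches its receptors. Insulin represses Igfbp1 by excluding FOXO1 from the nucleus, so this transcript is used as a readout of insulin action in liver. Fgf21 and Angptl4 are fasting-induced targets of the fatty acid receptor PPAR alpha. Inhbe encodes the subunit of activin E, and Fst encodes follistatin, which binds and neutralises activins.

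The expression values are log2 signals, so a difference of 1 is a doubling or halving of signal. A difference is always HFD minus RD. Array medians over all probe sets lay between 7.06 and 7.11, and Pearson's r between arrays across genes, which are not independent replicates, was 0.996 to 0.997 for livers of the same diet and 0.991 to 0.994 for livers of different diets. The diets were compared with limma over all genes, with the Benjamini-Hochberg adjustment over all 19938 and a threshold of 0.05.

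The promoter windows of 3 members are shown because they hold short elements known to link these genes to amino acid stress or to insulin, and the measured transcripts can be read against them. Each window runs from 250 bases before to 50 bases after the annotated start, on the strand of the gene, from RefSeq on GRCm38.p6. Of the 10 genes, 8 had a window in that table, and Angptl4 and Fst did not. The windows are chr10:127351799-127352098 (minus strand) for Inhbe, chr7:45615441-45615740 (minus strand) for Fgf21 and chr11:7197537-7197836 (plus strand) for Igfbp1. Capitals mark the letters TGATGCAA, read here on the opposite strand as TTGCATCA, in Inhbe and Fgf21, and the letters CAAAACAA in Igfbp1.
Inhbe: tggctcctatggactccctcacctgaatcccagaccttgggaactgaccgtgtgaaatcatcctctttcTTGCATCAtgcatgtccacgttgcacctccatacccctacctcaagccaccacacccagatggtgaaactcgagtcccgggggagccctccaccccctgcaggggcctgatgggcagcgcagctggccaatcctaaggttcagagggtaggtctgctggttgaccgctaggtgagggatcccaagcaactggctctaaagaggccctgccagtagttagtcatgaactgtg
Fgf21: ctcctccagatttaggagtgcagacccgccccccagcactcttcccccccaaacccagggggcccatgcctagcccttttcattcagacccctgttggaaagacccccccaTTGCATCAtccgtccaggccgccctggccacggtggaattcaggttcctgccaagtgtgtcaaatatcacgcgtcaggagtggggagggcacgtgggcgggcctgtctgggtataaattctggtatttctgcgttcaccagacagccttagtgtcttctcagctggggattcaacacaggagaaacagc
Igfbp1: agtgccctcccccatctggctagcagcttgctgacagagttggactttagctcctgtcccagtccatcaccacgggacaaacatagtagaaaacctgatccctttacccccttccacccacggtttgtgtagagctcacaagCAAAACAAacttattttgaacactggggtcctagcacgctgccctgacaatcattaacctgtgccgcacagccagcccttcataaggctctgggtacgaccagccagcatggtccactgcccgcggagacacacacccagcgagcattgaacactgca
TGATGCAA is a form of the composite element bound by ATF4 with C/EBP proteins. Searched on both strands, it was held by 294 of 32851 windows (0.895%), and among the members by Inhbe, at positions -181 to -174 from the start, and by Fgf21, at -139 to -132. The looser form TGATGNAA, which includes the first, was held by 3.97% of windows and again by no member besides this pair. CAAAACAA, one arm of the insulin response sequence known from human and rat IGFBP1, was held by 2.51% of windows and among the members by Igfbp1 alone, at -108 to -101. The forkhead core GTAAACA (3.65% of windows) and the palindrome TTCNNNGAA (8.30%), a form bound by STAT5, were searched likewise on both strands and matched no member. A match is a description of these letters and does not show that a factor was bound.

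Inhbe fell after 2 days of HFD, and no other measured member passed the test, also not at an unadjusted p under 0.05. Over all genes, 5.35% were called in either direction, 3.11% higher and 2.24% lower in HFD. A count of 1 of 9 members is therefore read as no more than this background, and the result concerns a single gene. The median difference over the 9 members was -0.06, against -0.00292 over all genes. The share of all genes with an unadjusted p under 0.05 is not given here. List counts at that cut below therefore have no background to be read against and are descriptions only.

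Inhbe (probe set 10373192) had log2 signals of 9.99, 10.22 and 10.06 in HFD livers, against 10.79, 10.85 and 11.34 in RD livers. Every HFD value lay below every RD value, and the RD values spread more widely because of RD replicate 3. Such a separation, with all HFD values below RD, was seen in 11.7% of all genes, and separation in either direction in 25.7%. The mean was 10.09 ± 0.12 in HFD and 10.99 ± 0.30 in RD (SD, n = 3 each). The difference was -0.90 ± 0.14 (SE; 95% interval -1.23 to -0.58; limma adjusted p = 0.012), which is 1.87-fold lower signal in HFD. The call held in each fit with 1 array left out, with differences from -1.01 to -0.73 and adjusted p up to 0.044. It did not pass when every row of the table was tested in place of named genes (adjusted p = 0.063) or when the spread of each gene was used without moderation (adjusted p = 0.142).

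The relatives of Inhbe gave no call. Inhbc, which encodes the activin C subunit and is the next protein-coding gene to Inhbe in RefSeq on GRCm38.p6, is named here after its values were seen. Its log2 signals were 12.32, 12.31 and 12.25 in HFD, against 12.53, 12.42 and 12.46 in RD, a difference of -0.18 ± 0.06 (SE; limma adjusted p = 0.166). Of 20 genes of the inhibin and activin system, which include the other subunits, the follistatin relatives Fstl1 and Fstl3, the activin receptors and the SMAD proteins, 0 passed in limma (3 at an unadjusted p under 0.05), and their differences ran from -0.27 for Smad7 to 0.20 for Inhbb. The median over these 20 genes was -0.01. Fst (probe set 10412260) had 7.95, 8.01 and 7.80 in HFD and 8.03, 7.95 and 8.14 in RD. The diets overlapped for Fst, and its difference of -0.12 ± 0.08 did not pass (95% interval -0.31 to 0.07; limma adjusted p = 0.501).

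**Figure D1:**
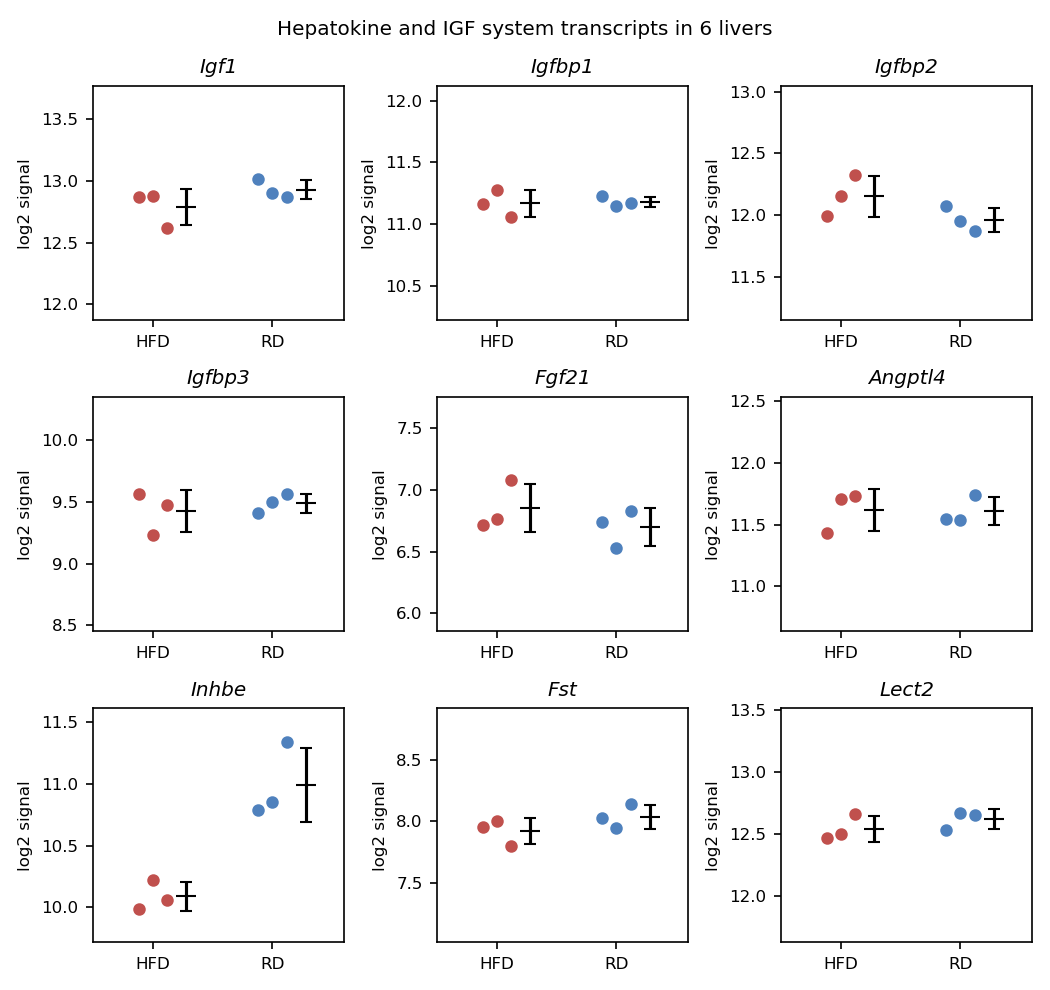
Log2 signal of the 9 measured members on each array (points), with HFD on the left and RD on the right of each panel and the mean ± SD (n = 3) in black. All panels span the same number of log2 units. Only in the Inhbe panel do the HFD points, 9.99 to 10.22, lie clear of the RD points, 10.79 to 11.34.

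Of 18 genes of the ATF4 response, which serves amino acid supply and stress, 5 rose and 0 fell, 4 differences were negative and the median was 0.17. The asparagine synthetase Asns had log2 signals of 8.52, 9.27 and 9.08 in HFD, against 7.36, 7.39 and 7.94 in RD, and rose by 1.39 ± 0.21 (limma adjusted p = 0.0096). The serine synthesis enzyme Psat1 rose by 1.14 ± 0.17 and the stress-induced factor Atf3 by 1.17 ± 0.10. The mitochondrial folate enzyme Mthfd2 (0.81 ± 0.14) and the stress gene Nupr1 (0.40 ± 0.09) also rose. Mthfd2 did not pass without HFD replicate 3 or RD replicate 1 or 2 (adjusted p up to 0.068), and Nupr1 passed in only 1 fit with an array left out, the one without HFD replicate 1 (adjusted p up to 0.136). Among the 17 genes of this list with a promoter window, TGATGCAA was held by Atf3, Chac1, Nupr1 and Vldlr, and the looser form also by Trib3 and Asns. In the list of insulin and FOXO1 responsive genes the same 8 letters were held by G6pc and Insig2. Genes with these letters had differences in both directions. Inhbe and the glucose phosphatase G6pc (-0.65 ± 0.09) fell and Atf3 and Nupr1 rose, while Chac1 (0.72 ± 0.24), Vldlr (0.12 ± 0.17) and Insig2 (0.40 ± 0.14), named for the letters after their values were seen, did not pass (limma adjusted p = 0.140, 0.749 and 0.145). The ATF4 list was taken up with earlier results on its stress genes known, so its direction is a description.

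Fgf21, the other member with this element, did not pass. This fasting and stress hormone (probe set 10563344) had log2 signals of 6.72, 6.76 and 7.08 in HFD, against 6.74, 6.53 and 6.83 in RD. HFD replicate 3 had the highest value, and the other HFD livers lay within the RD range. The difference was 0.16 ± 0.12 (SE; 95% interval -0.11 to 0.42; limma adjusted p = 0.526), and it was 0.04 without HFD replicate 3. Without detection calls, it is not known whether Fgf21 lay above background, and a probe set near background understates a difference.

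By distance between log2 values after each gene's own mean over the 6 arrays was subtracted, the genes most like Inhbe were Gria3, a glutamate receptor subunit (distance 0.27), Slc15a5, a member of the peptide transporter family (0.28), and G0s2, an inhibitor of the lipase that hydrolyses stored triglyceride (0.28). G0s2 had log2 signals of 7.78, 7.90 and 8.08 in HFD, against 8.53, 8.62 and 9.27 in RD. Like Inhbe, G0s2 had its highest RD value in RD replicate 3. The differences were -0.78 ± 0.10 for Gria3, -0.86 ± 0.12 for Slc15a5 and -0.88 ± 0.18 for G0s2. These genes were chosen for their likeness over 6 arrays, so their values are a description.

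**Figure D2:**
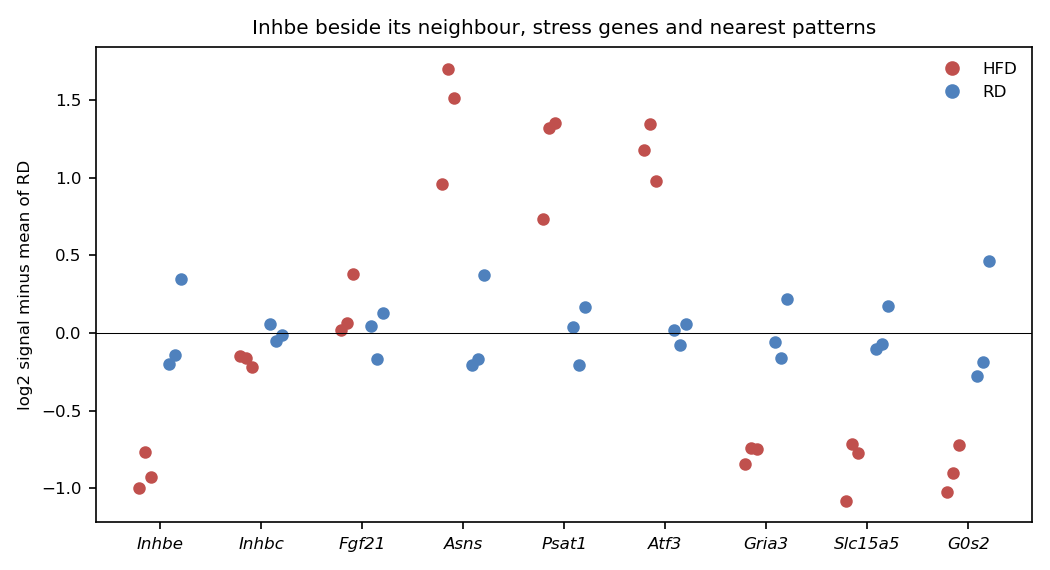
Log2 signal minus the mean of the 3 RD arrays for Inhbe, its chromosomal neighbour Inhbc, Fgf21, 3 genes of the ATF4 response and the 3 genes nearest to Inhbe in pattern. There is 1 point per array (HFD left, RD right of each pair). Inhbe and its nearest patterns, chosen for their likeness to it, lie below 0 in HFD, while Asns, Psat1 and Atf3 lie above it. These 3 are among the 5 genes called higher in the ATF4 list of 18. In that list 13 genes did not pass and 4 differences were negative.

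Transcripts of IGF-1 and its 3 binding proteins showed no difference that passed. Igf1 (probe set 10365559), the growth factor itself, had log2 signals of 12.87, 12.88 and 12.62 in HFD, against 13.02, 12.90 and 12.87 in RD. HFD replicate 3 was the lowest, and the other HFD values lay at the low end of the RD range. The difference was -0.14 ± 0.09 (SE; 95% interval -0.34 to 0.06; limma adjusted p = 0.453), and it was -0.05 without HFD replicate 3.

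Igfbp2 (probe set 10347277), a binding protein made by hepatocytes, had 11.99, 12.15 and 12.32 in HFD and 12.07, 11.95 and 11.87 in RD. With 0.19 ± 0.10 it was the most positive difference of the members (95% interval -0.03 to 0.41; limma adjusted p = 0.325), and HFD replicate 1 lay within the RD range. Igfbp5, its next gene on the chromosome in RefSeq on GRCm38.p6 and named after its values were seen, had 7.03, 6.87 and 6.95 in HFD, against 7.17, 7.60 and 7.39 in RD. Its groups did not overlap, and its difference of -0.43 ± 0.11 narrowly missed the threshold (limma adjusted p = 0.059).

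Igfbp1 (probe set 10374223), the insulin-repressed member with the printed element, had log2 signals of 11.16, 11.28 and 11.06 in HFD, against 11.23, 11.15 and 11.17 in RD. The RD values lay inside the span of the HFD values. The difference was -0.01 ± 0.07 (SE; 95% interval -0.19 to 0.16; limma adjusted p = 0.946), and its sign turned to 0.01 when arrays were centred on their medians. Of 11 measured genes that respond to insulin and FOXO1, 1 rose and 1 fell, with a median of -0.05. The glucose phosphatase G6pc fell by 0.65 ± 0.09 on the log2 scale, and the lipogenic factor Srebf1 rose by 0.97 ± 0.22. The call of G6pc held in each fit with 1 array left out (adjusted p up to 0.029), while that of Srebf1 held only without RD replicate 3 (adjusted p up to 0.102).

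Igfbp3 (probe set 10384223), the main carrier of IGF-1 in blood, lies next to Igfbp1 on the chromosome and in rodent liver is made mainly by cells other than hepatocytes. It had 9.57, 9.24 and 9.48 in HFD, against 9.41, 9.50 and 9.56 in RD. The diets overlapped, the difference was -0.06 ± 0.10 (SE; 95% interval -0.28 to 0.15; limma adjusted p = 0.780), and it turned to 0.03 without HFD replicate 2. Markers of some of these other cells were higher in HFD. Of 11 markers of Kupffer cells, the resident macrophages, 7 rose, with a median of 0.61, and their mean log2 signal lay between 10.34 and 10.82 in HFD and between 9.95 and 10.03 in RD. Between 2 and 8 of them passed when 1 array was left out. Of 5 cholangiocyte markers 5 rose in the fit of all arrays, with list means of 7.26 to 7.44 in HFD and 6.85 to 6.93 in RD, but at most 1 passed when any 1 array was left out. These means lay below the median over genes of each array (7.51 to 7.56), and whether each probe set lay above background is not known. The count was 2 when only the brighter genes were fitted, 1 with a fold of 1.5 also required and 0 without moderation. Of 10 sinusoidal endothelial markers and 10 stellate cell markers 0 passed in limma (1 and 0 at an unadjusted p under 0.05), with medians of 0.06 and 0.03. In bulk tissue, a change in the number of cells of a type and a change in RNA per cell cannot be told apart, and the part of cell makeup in the values of Igfbp3 was not tested.

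**Figure D3:**
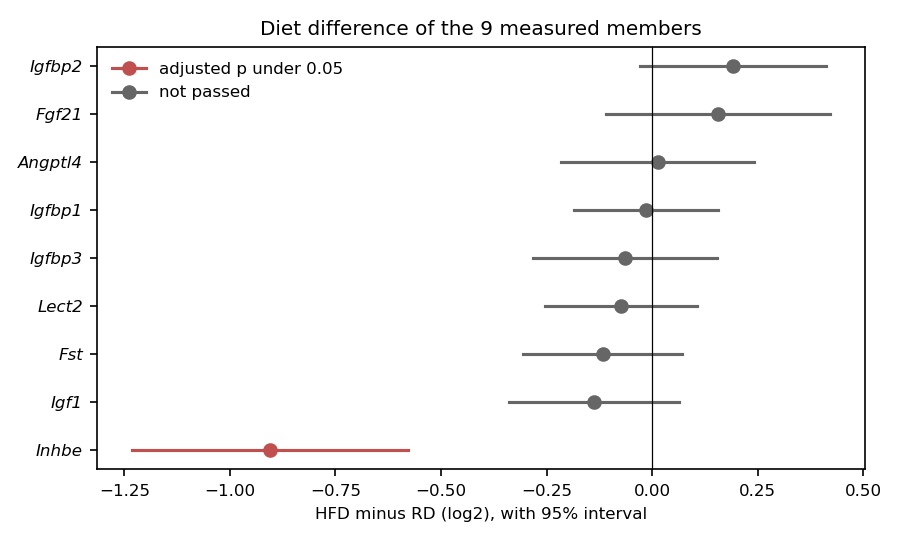
Difference between diets, HFD minus RD on the log2 scale, for the 9 measured members (points) with 95% intervals from limma, not adjusted for the number of genes. The interval of Inhbe lies wholly below 0, from -1.23 to -0.58, and the other 8 intervals include 0.

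The remaining secreted regulators also overlapped between the diets. Angptl4 (probe set 10450038), an inhibitor of lipoprotein lipase that fatty acids induce through PPAR receptors, had log2 signals of 11.43, 11.71 and 11.73 in HFD, against 11.55, 11.54 and 11.74 in RD. Its difference was 0.01 ± 0.10 (SE; 95% interval -0.22 to 0.24; limma adjusted p = 0.965), and it was negative without HFD replicate 2 or 3 or RD replicate 1 or 2, down to -0.04. Lect2 (probe set 10409592), a chemotactic hepatokine, had 12.47, 12.50 and 12.66 in HFD, against 12.53, 12.67 and 12.65 in RD, with a difference of -0.07 ± 0.08 (95% interval -0.25 to 0.11; limma adjusted p = 0.681). For the 8 members that did not pass, 5 differences were negative and 3 positive, and their SEs lay between 0.07 and 0.12. The 95% intervals of these 8 reached at most 1.27-fold lower, for Igf1, and 1.34-fold higher, for Fgf21. A signal change of the size measured for Inhbe lay outside each of them. For Fgf21 this concerns signal only, since it is not known whether its probe set lay above background. A miss of the threshold does not show that the diets gave the same level.

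Of 13 regulators of Fgf21 and Angptl4, 0 rose and 1 fell in limma, and 5 had an unadjusted p under 0.05. Their differences ran from -0.49 for Ppargc1b, a coactivator that did not pass (limma adjusted p = 0.131), to 0.23 for Mlxipl, with a median of 0.01. The fall was that of Ppara, the receptor PPAR alpha, whose difference of -0.30 ± 0.07 (limma adjusted p = 0.039) was lost in each fit of 5 arrays (adjusted p up to 0.115). Of 16 measured PPAR alpha responsive genes, 2 rose and 1 fell, with a median of 0.03. The peroxisomal enzyme Ehhadh rose by 1.05 ± 0.10 and the pyruvate dehydrogenase kinase Pdk4 by 1.01 ± 0.19, while Cpt1a, which admits fatty acids to mitochondria, fell by 0.33 ± 0.06 on the log2 scale. The call of Pdk4 was lost without each single RD array (adjusted p up to 0.084) and that of Cpt1a in each fit of 5 arrays (adjusted p up to 0.082).

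Of 10 genes listed as FGF21 receptors and relatives, 2 rose and 0 fell, and neither is the FGF21 co-receptor. Besides receptors, this list holds other FGF ligands and the galectin Lgals3. The FGF receptor Fgfr2 had log2 signals of 10.69, 10.71 and 10.55 in HFD, against 9.94, 9.91 and 10.01 in RD, and rose by 0.70 ± 0.07 (limma adjusted p = 0.0016). The galectin Lgals3, a lectin abundant in macrophages, rose by 0.95 ± 0.15, which did not pass without RD replicate 2 (adjusted p = 0.056). Kupffer cell markers were higher in the same livers, as given above, and their part in the value of Lgals3 was not tested. Of 9 measured genes of the other angiopoietin-like proteins and the lipase system, 0 passed in limma (4 at an unadjusted p under 0.05; median -0.02), and of 6 receptors of GDF15 and LECT2 0 passed (2 unadjusted; median 0.04).

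Within the wider IGF and growth hormone system, calls were few. Among 7 other IGF binding proteins and carriers, 0 rose and 1 fell, while 6 differences were negative and the median was -0.22. Igfbp4, a binding protein known as an inhibitor of IGF action, had log2 signals of 13.03, 12.97 and 13.04 in HFD, against 13.53, 13.49 and 13.29 in RD. The groups did not overlap, and the difference was -0.42 ± 0.08 (SE; limma adjusted p = 0.023), but it passed in only 1 fit with an array left out, that without RD replicate 3 (adjusted p up to 0.090). Of 7 IGF binding protein proteases and their inhibitors 0 passed in limma (0 at an unadjusted p under 0.05), with a median of 0.01.

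Of 21 measured receptors and signalling genes for growth hormone, IGF and insulin, 1 rose and 1 fell, with a median of 0.01. Stat5b, the STAT that growth hormone activates in liver, had log2 signals of 10.76, 10.75 and 10.82 in HFD, against 10.31, 10.46 and 10.26 in RD, and rose by 0.43 ± 0.07 (limma adjusted p = 0.016). It did not pass without RD replicate 1 (adjusted p = 0.067). Pik3r1, a regulatory subunit of the PI3 kinase that acts downstream of the insulin receptor, fell by 0.52 ± 0.10 on the log2 scale (limma adjusted p = 0.021). It did not pass without HFD replicate 2 or 3 or RD replicate 1 or 2 (adjusted p up to 0.086).

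Most genes that respond to growth hormone and STAT5 had negative differences, of which few passed. Of 13 measured, 0 rose and 2 fell, 10 differences were negative and the median was -0.54, against -0.00292 over all genes. Bcl6, a repressor that opposes STAT5 at shared sites in liver, had log2 signals of 8.10, 8.02 and 8.17 in HFD, against 9.09, 8.97 and 9.91 in RD, and fell by 1.23 ± 0.22 (limma adjusted p = 0.018). Its call was lost without each single HFD array (adjusted p up to 0.053). Elovl3, a fatty acid elongase expressed more in male than in female mouse liver, fell by 0.95 ± 0.19 on the log2 scale, a call lost without each single RD array (adjusted p up to 0.108).

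Among other hepatokines, 2 of 18 measured rose and 0 fell, with a median of -0.03. Lcn2, an iron-siderophore binding protein of the acute phase, rose by 1.16 ± 0.23, and the glycoprotein Gpnmb rose by 0.59 ± 0.10. The call of Lcn2 held only without HFD replicate 2 (adjusted p up to 0.099), and that of Gpnmb was lost without each single RD array (adjusted p up to 0.060). Gpnmb is also expressed by macrophages, whose markers were higher in the same livers, and their part in its value was not tested. Gdf15 responds to p53 as well as to stress. Of 8 measured p53 responsive genes 2 rose, the p53 inhibitor Mdm2 (0.50 ± 0.09) and the death receptor Tnfrsf10b (0.39 ± 0.09). Mdm2 was lost without HFD replicate 1 or 3 or RD replicate 1 or 2 (adjusted p up to 0.076), and Tnfrsf10b passed in only 1 fit with an array left out, that without RD replicate 3 (adjusted p up to 0.142).

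**Figure D4:**
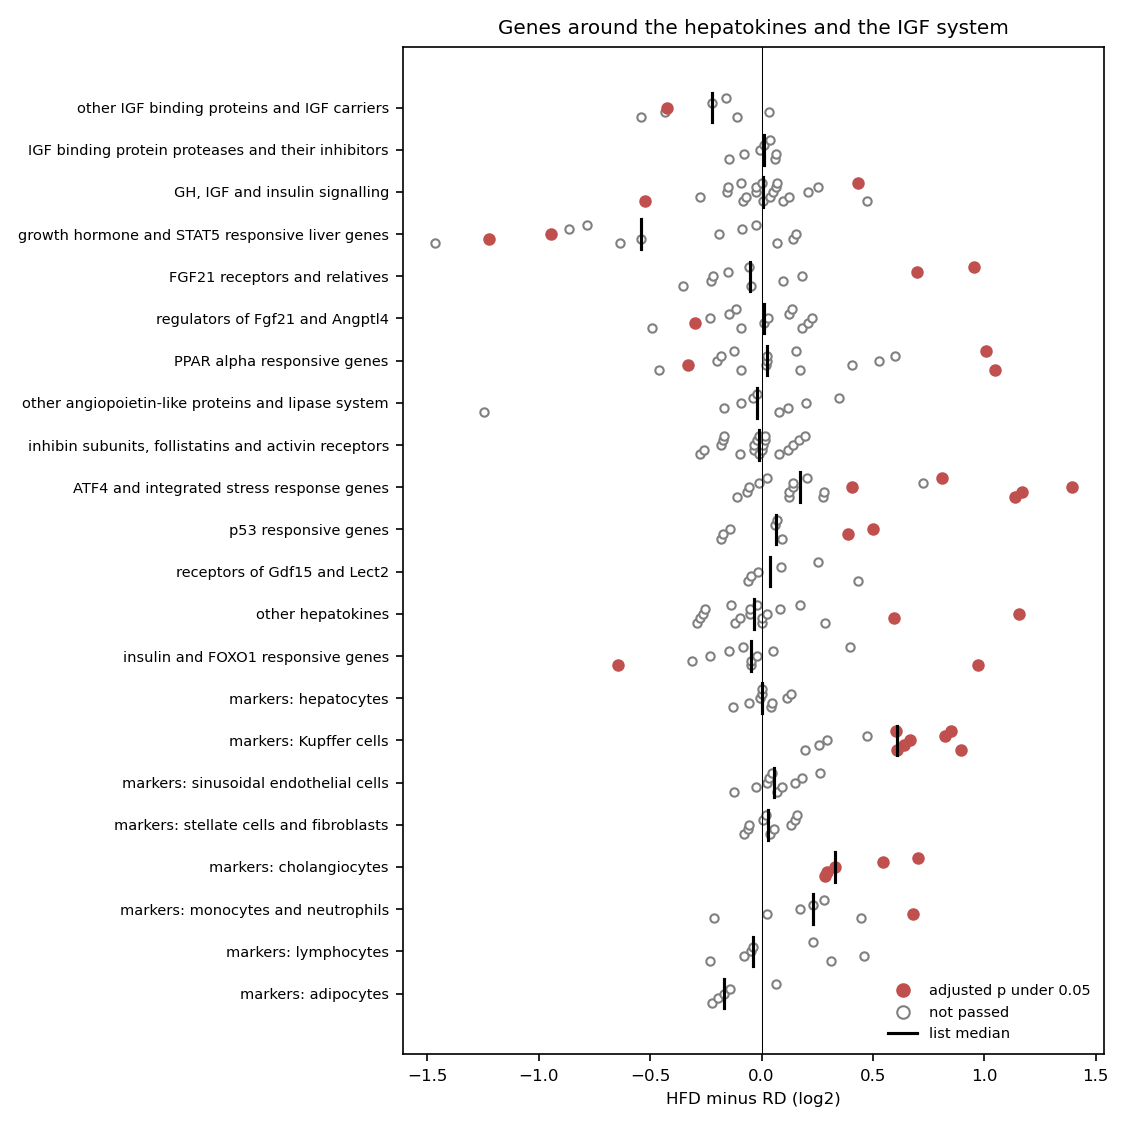
Difference between diets, HFD minus RD on the log2 scale, for each measured gene of 22 lists of related genes and cell type markers, with 1 row per list and 1 point per gene. Filled points passed (limma adjusted p under 0.05), open points did not, and bars are list medians, which run from -0.54 for growth hormone and STAT5 responsive genes to 0.61 for Kupffer cell markers.

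Hepatocyte markers, transcripts of the cells that make most of these secreted proteins, gave no call. Of 9 measured, including albumin (Alb), 0 passed in limma (0 at an unadjusted p under 0.05), with a median of 0.00127 and list means of 13.86 to 13.90 in HFD and 13.86 in each RD liver. Their differences ran from -0.13 for Tat to 0.13 for Apoc1. The difference of Inhbe lay outside this range, and the part of hepatocyte content in its value was not tested. The hepatocyte list means lay near the top of the array values, which reached 14.86. Whether signals this bright follow a difference in full was not tested, so the narrow range does not show that hepatocyte content was equal. Monocyte and neutrophil markers gave 1 riser of 7, Lyz2 (0.68 ± 0.13; lost without each single RD array, adjusted p up to 0.087), with list means of 6.55 to 6.82 in HFD and 6.39 to 6.46 in RD. Of 7 lymphocyte and 5 adipocyte markers 0 passed in limma (0 and 1 at an unadjusted p under 0.05).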

How the data were processed

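Total RNA of frozen liver was labelled with a GeneChip terminal labelling kit and hybridised to 6 arrays, per the labels. The authors deposited 1 log2 value per probe set and array (35512 rows). No source used here states their summarisation or normalization, and the base was inferred from the values, 2.28 to 14.86. Values were used as deposited. Arrays have no depth, and their number limits precision. Detection calls and scan batches were not used.

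The platform annotation, which can be old, gave 1 symbol for 21789 rows, several for 1621 and none for 12102. The brightest probe set per symbol by mean over 6 arrays gave 19938 genes. The diets were compared in limma 3.58.1 (R 4.3.3; lmFit and eBayes, diet alone, two-sided). The steps were tested on simulated data. A simulated difference of 0.5 was called in 52.2% of 67 changed genes, 1 in 94% of 67 and 2 in 100% of 66. Of 169 calls in this simulation, 5 were false. Differences of 0.5 or less can therefore be missed with these array numbers. Members and lists were chosen with earlier results of these data known. Of each list of related genes, up to 6 that passed are named. Cell type markers are given as counts, and the genes at the ends of a range, like Lyz2 and other genes marked so in the text, were named after their values were seen. Alternatives changed normalization, centring, dim genes, probe set choice, rows tested, variance model, array weights, replicate block, fold threshold (1.5) and left out each array in turn.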

Additional observations from a re-analysis of the deposited data

How the results depend on the processing

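No member was called higher under any alternative run. The count of members called lower, 1 (Inhbe), was 0 when every row of the table was tested (Inhbe -0.90, adjusted p = 0.063) and without moderation (-0.90, adjusted p = 0.142), and 1 under each other alternative, including the range of 1 to 1 without 1 array. The other 8 members passed under no alternative. Fgf21 lay below the limit for brighter genes and has no value there. The sign of Igfbp1 turned with median centring (0.0065) and array weights (0.0055), and its differences ran from -0.070 to 0.038 without 1 array. Without 1 array Igfbp3 ran from -0.13 to 0.032 and Angptl4 from -0.039 to 0.11. Over all genes, 621 were higher and 446 lower; the counts were 142 and 132 with every row tested, 41 and 58 without moderation, 208 and 151 with a fold of 1.5 also required, and 318 and 245 with the replicate number as a block. Without 1 array they ran from 197 to 371 higher and from 178 to 273 lower. Deviations of same-numbered arrays correlated at -0.107, 7.2e-05 and 0.117. This gave no sign that the replicate numbers pair the arrays, but so few values cannot show that they do not. With the replicate block Inhbe stayed at -0.90 (adjusted p = 0.022). The share of higher calls was 58.2%, against 65.4% with median centring, 51.8% with every row tested, 41.4% without moderation and 47.7% without RD replicate 1. Of 440 list counts under alternatives with all arrays, 375 were equal to the main count or within 1.5 times of it. With 1 array left out, 201 of 264 were. These totals include counts that were 0 in both fits, so they do not show that list calls held. The causes of these shifts were not tested.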

Other observations

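Known direct targets of growth hormone signalling varied between livers of the same diet. The feedback inhibitor Socs2 had log2 signals of 10.52, 10.49 and 9.40 in HFD, against 10.37, 9.24 and 10.60 in RD. Its relative Cish had 10.08, 9.70 and 9.04 in HFD, against 10.30, 9.74 and 8.86 in RD. Neither passed (0.07 ± 0.39 and -0.03 ± 0.36; limma adjusted p = 0.949 and 0.980), and the SEs were over 4 times the median SE of all genes, 0.08. The hepatocyte factor Onecut1 had 9.82, 10.06 and 8.54 in HFD, against 11.63, 10.46 and 10.74 in RD. Its groups did not overlap, and its difference of -1.46 ± 0.41 did not pass (limma adjusted p = 0.087). Igfals, the acid-labile subunit that holds IGF-1 and Igfbp3 in their blood complex, had 10.05, 10.14 and 9.61 in HFD, against 10.63, 10.65 and 10.14 in RD (-0.54 ± 0.17; limma adjusted p = 0.125). The growth hormone receptor Ghr had 13.06, 13.08 and 12.96 in HFD, against 13.32, 13.27 and 13.35 in RD, and narrowly missed the threshold (-0.28 ± 0.07; limma adjusted p = 0.051). These 5 genes are named after their values were seen.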
